A study of Mus musculus with 12 samples.

Results

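Chemokine receptors are the subject here: 10 genes, Ccr2, Ccr4, Ccr6, Ccr7, Ccr8, Ccr9, Cxcr3, Cxcr4, Cxcr5 and Cxcr6, chosen by name and matched to the gene symbols of the deposited tables. All 10 were listed among the 10405 symbols of the table of regulatory T cells (Treg). In the table of conventional T cells (Tcon), 9 of them were listed among 9886 symbols, Ccr6 being the one not listed, and the tables together hold 10507 symbols. The study sequenced RNA of sorted mouse T cells in 12 libraries, 6 of naive CD4+ Tcon and 6 of CD4+CD25+FOXP3+ Treg. Every mouse carried the B6.Cg-Foxp3tm2Tch/J allele (FOXP3-IRES-GFP), which couples GFP to the endogenous Foxp3 locus, and no age is given in the labels. Mice received either vehicle, labelled DMSO, or SAH-FOXP3(229-259)C, a helical peptide held in shape by a chemical staple and modelled on part of FOXP3, as 1 intraperitoneal injection a day for 2 days at 25 mg/kg. Each cell type gave 1 vehicle library (01) and 2 SAH libraries (02 and 03) from lymph node, and 1 vehicle library (04) and 2 SAH libraries (05 and 06) from spleen. The labels do not say whether libraries came from separate or pooled mice, so every p-value reflects the spread among these libraries alone, and that spread may be technical.

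Chemokine receptors are G protein-coupled receptors that steer migrating cells along gradients of chemokines, small secreted proteins displayed by stromal, endothelial and myeloid cells. In T cells they fall into 2 broad roles. Homeostatic receptors such as CCR7 and CXCR5 direct cells to the T cell zones and B cell follicles of lymphoid organs, and CXCR4 reads CXCL12 in bone marrow and stroma. Inflammatory and tissue receptors such as CXCR3, CXCR6, CCR2, CCR4, CCR6, CCR8 and CCR9 bring activated, memory and regulatory cells to inflamed tissue, skin and gut.

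The sorted populations carried their defining RNA. Foxp3 lay between 655 and 726 CPM in the 6 Treg libraries and between 19.6 and 24.9 CPM in the 6 Tcon libraries, and Il2ra, the gene of CD25, lay between 520 and 788 CPM and between 3.85 and 6.94 CPM. Values are CPM as the file headers name them, read counts scaled to the depth of the library and by a further factor of each library. Reads rebuilt from these values numbered 36442420 to 48888678 in a library, and a single read adds 0.0209 to 0.0267 CPM. Each table lists genes with 1 CPM or more in at least 3 of its libraries, and a receptor below that level was not analysed here.

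Markers of other cell types differed between the organs in both cell types. The summed CPM of the listed CD8 and NK markers lay between 40.6 and 46.1 in lymph node Tcon and between 78.5 and 102 in spleen Tcon, while in Treg it lay between 40.6 and 41.1 and between 33.5 and 34.8. The lower spleen Treg sum held members that went both ways, with Nkg7 lower and Klrb1c and Eomes higher by the limma test. In Tcon, Klrd1, Eomes, Nkg7 and Klrb1c were higher in spleen by the limma test. Cd8b1, the only CD8 gene listed, was nearly level in Tcon, at 13.8 to 14.4 CPM in lymph node and 13.5 to 14.3 CPM in spleen. Of that list, 6 of 10 genes were listed in Tcon and 5 of 10 in Treg, and the defining genes Cd8a, Ncr1 and Gzma were listed in neither. The myeloid and dendritic sum lay between 23.6 and 25.4 in lymph node Tcon and between 44.9 and 51.8 in spleen Tcon (4 of 11 genes listed), and between 29.9 and 32.6 and between 70.1 and 109 in Treg (6 of 11 listed), with Adgre1, Itgax and S100a8 listed in neither. In Tcon, Lyz2 alone of the 4 was higher in spleen by the limma test, and in Treg all 6 were. B cell markers summed to 2.68 to 3.56 and 5.39 to 6.85 in Tcon (2 of 10 listed), and to 16.1 to 17.2 and 23.9 to 24.9 in Treg (3 of 10 listed), in lymph node and spleen, with Ms4a1 listed in neither. Plasma cell markers summed to 98.1 to 127 and 143 to 221 in Tcon and to 81.5 to 98.2 and 173 to 216 in Treg (2 of 6 listed in each). Of the plasma pair, Jchain, the joining chain of secreted antibodies, went from between 0.147 and 0.849 CPM in lymph node Treg to between 72.1 and 120 CPM in spleen Treg, and from between 0.281 and 0.373 CPM to between 36.7 and 102 CPM in Tcon. Xbp1, the other, lay between 81.3 and 97.6 CPM in lymph node Treg and between 96.5 and 105 CPM in spleen Treg, and in Tcon its ranges overlapped (97.8 to 126 and 104 to 118 CPM). Of the red cell list, 1 of 6 genes was listed in Treg and 0 in Tcon. That gene, Alas2, the heme synthesis enzyme of red cell precursors, was at 0.635, 0.784 and 0.600 CPM in lymph node Treg and at 4.18, 2.31 and 28.8 CPM in spleen Treg, with library 06 highest. Alas2 in Treg, and Jchain in both cell types, stayed below 1 CPM in every lymph node library. The listing of these genes thus rests on the spleen libraries. The part of such other cell types in the organ differences that follow was not tested.

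**Figure D1:**
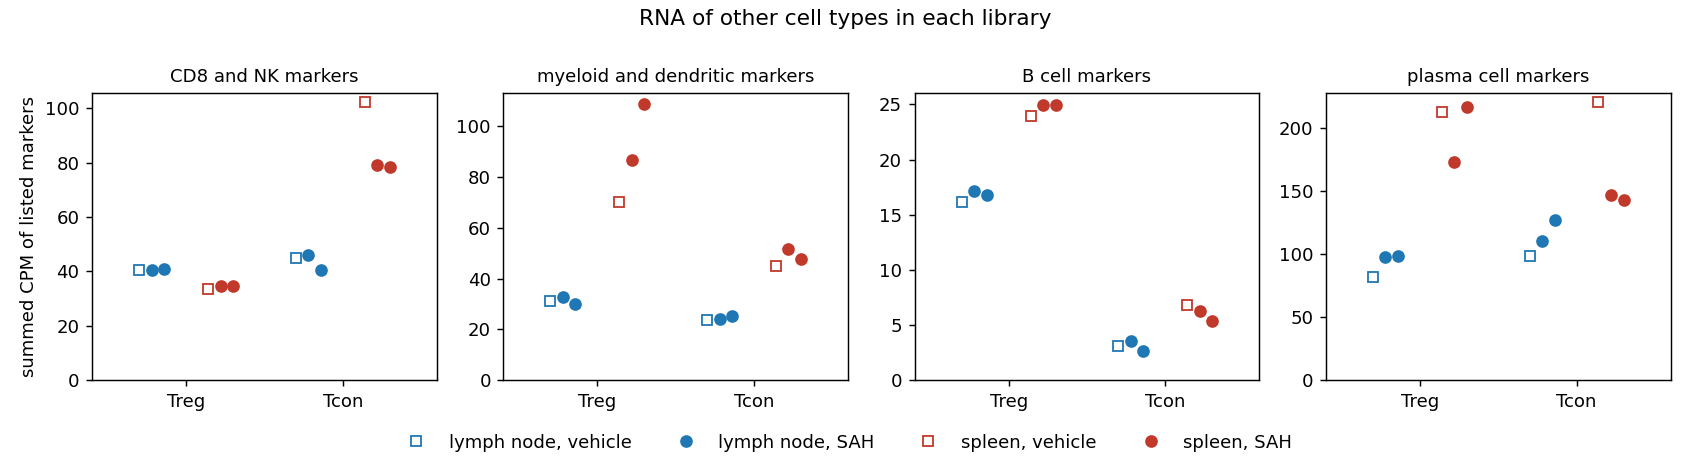
Summed CPM of the listed marker genes of other cell types (linear y axes from 0) in each Treg and Tcon library, lymph node in blue and spleen in red, vehicle as open squares and SAH as filled circles. The CD8 and NK sum was higher in spleen Tcon (78.5 to 102 CPM) than in lymph node Tcon (40.6 to 46.1 CPM). Its only CD8 gene, Cd8b1, was nearly level between the organs in Tcon. The sum was lower in spleen Treg than in lymph node Treg, with Nkg7 lower and Klrb1c and Eomes higher in spleen. The other sums were higher in spleen in both, and of the myeloid genes in Tcon only Lyz2 passed the limma test. Jchain, and Csf1r in Treg, were listed only through the spleen libraries.

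Divided by the length of the main transcript, so that genes can be compared, the Treg levels had an order led by Cxcr4, at 170 ± 25.1 CPM per kilobase, and Ccr7, at 137 ± 24.9 (SD, n = 6 each), whose ranges overlapped. Ccr8, the receptor for CCL1 that marks activated Treg in tissue, came next at 43.7 ± 7.51 CPM per kilobase. Ccr6, Cxcr5, Cxcr3 and Ccr4 followed at 17.9 to 21.5 CPM per kilobase, each range overlapping its neighbour's, and that of Ccr6 also overlapping that of Ccr8. Ccr2 lay below them at 4.86 ± 0.659, and Ccr9, at 2.07 ± 0.602, and Cxcr6, at 1.87 ± 0.274 CPM per kilobase (SD, n = 6 each), were lowest, with overlapping ranges. In Tcon, Ccr7 was highest at 364 ± 49.1 CPM per kilobase and did not overlap with Cxcr4 at 171 ± 29.3 (SD, n = 6 each). The other 7 receptors had means of 0.974 to 7.95 CPM per kilobase, and each range overlapped that of its neighbour in the order. Cxcr6, Cxcr3, Ccr9 and Ccr2 spread widely over the Tcon libraries, and their organs differed. With the merged length of all exons in place of the main transcript, Ccr6 moved from place 4 to place 7 in Treg. This order pools the organs. Ccr6 had place 4 in lymph node Treg, at 29.4 CPM per kilobase, and place 7 in spleen Treg, at 13.5. Ccr8 had place 3 in lymph node Tcon, at 6.48 CPM per kilobase, and place 6 in spleen Tcon, at 2.09.

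The levels of Treg and Tcon came from tables normalized separately and are set side by side without a test. Ccr4, a receptor for CCL17 and CCL22, averaged 50.2 ± 7.22 CPM over the Treg libraries and 4.19 ± 0.650 CPM over those of Tcon (SD, n = 6 each), and was thus 12.0 times higher in Treg. The ratio was 10.2 for Ccr8 and 6.39 for Cxcr5, and each of these was higher in the Treg library for every one of the 6 library numbers. Ccr7 was the reverse, averaging 271 ± 49.2 CPM over the Treg libraries and 721 ± 97.2 CPM over those of Tcon (SD, n = 6 each), which is 2.66 times higher in Tcon. Cxcr4 was nearly level, at 307 ± 45.4 CPM and 308 ± 53.0 CPM (SD, n = 6 each), and was higher in Treg for 3 of the 6 library numbers. The ratio of Ccr8 was 7.46 in lymph node and 18.7 in spleen, and the organs also lay apart for other receptors. Ccr2 was 28.9 times higher in Treg in lymph node and 2.99 times higher in spleen, Cxcr3 was 8.54 and 2.77 times higher, and Ccr9 was 2.29 and 1.20 times higher. The lymph node ratio of Ccr2 rests on low Tcon values of 0.533 to 1.10 CPM, which is 20 to 43 reads. Cxcr6 was 1.21 times higher in Treg in lymph node but 7.88 times higher in Tcon in spleen.

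**Figure D2:**
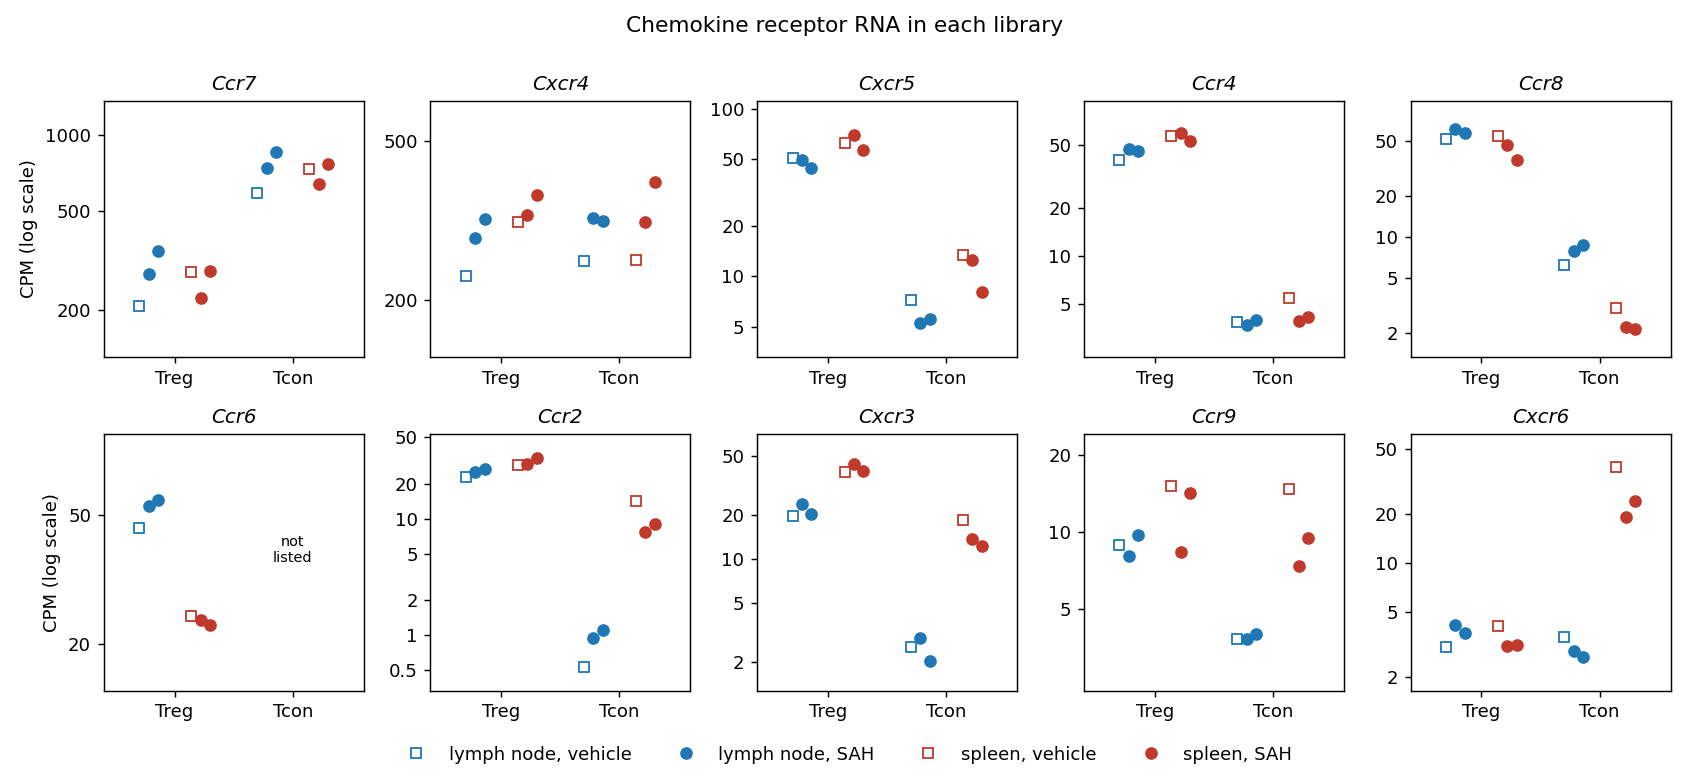
CPM of each chemokine receptor (log y axes, 1 panel per gene) in every Treg and Tcon library, lymph node in blue and spleen in red, vehicle as open squares and SAH as filled circles. Ccr4, Ccr8 and Cxcr5 were higher in Treg in both organs, Ccr7 was higher in Tcon, and the Tcon values of Ccr2, Cxcr3, Ccr9 and Cxcr6 separated by organ.

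Upstream sequence is shown for 4 receptors that differed between the organs in at least 1 cell type. Cxcr6 (in Tcon) and Cxcr3 were higher in spleen, and Ccr8 (in Tcon) and Ccr6 (in Treg) were higher in lymph node. Ccr2 is not shown, since only 17 bases of its window lay outside exons. RefSeq promoter windows (GRCm38.p6) were found for 8 of the 10 receptors, with 9 windows in all as Ccr6 has more than 1 start. Short motifs were searched on both strands in the 250 bases before each start. The AP-1, STAT, NF-kB and E-box motifs were searched as well and are not printed in capitals. The capitals mark matches to the RUNX core TGTGGT (14.0% of 32851 windows of all genes held it), the T-box core TCACAC (12.3%), the GATA core AGATAA (9.99%) or the ROR motif AGGTCA (14.0%), and these motifs do not overlap in the printed stretches. Bases inside an annotated exon are left out, so the stretches differ in length. A match is a description of the letters only.
Cxcr6, chr9:123806227-123806474, plus strand: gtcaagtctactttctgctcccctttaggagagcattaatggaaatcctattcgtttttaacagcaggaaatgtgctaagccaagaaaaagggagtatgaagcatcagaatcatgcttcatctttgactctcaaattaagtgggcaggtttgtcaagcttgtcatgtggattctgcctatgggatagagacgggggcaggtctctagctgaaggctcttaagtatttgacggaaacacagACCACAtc
Cxcr3, chrX:101734270-101734397, minus strand: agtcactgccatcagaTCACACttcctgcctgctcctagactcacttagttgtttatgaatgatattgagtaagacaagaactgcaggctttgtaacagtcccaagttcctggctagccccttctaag
Ccr8, chr9:120091883-120092113, plus strand: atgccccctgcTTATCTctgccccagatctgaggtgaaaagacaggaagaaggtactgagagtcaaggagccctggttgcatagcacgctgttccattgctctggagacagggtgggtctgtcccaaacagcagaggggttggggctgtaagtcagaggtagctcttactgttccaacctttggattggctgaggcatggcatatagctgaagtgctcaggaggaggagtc
Ccr6, chr17:8235793-8236042, plus strand: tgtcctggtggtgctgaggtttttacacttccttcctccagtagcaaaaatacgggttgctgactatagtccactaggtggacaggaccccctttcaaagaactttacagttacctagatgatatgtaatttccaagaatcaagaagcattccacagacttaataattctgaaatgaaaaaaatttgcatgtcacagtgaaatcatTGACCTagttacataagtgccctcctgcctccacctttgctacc
The stretch before Cxcr6 held the RUNX core as its reverse complement next to the start, and that before Cxcr3 held the T-box core. The stretch before Ccr8 held the GATA core and the one before Ccr6 the ROR motif, both as reverse complements. The Ccr6 stretch also held 2 unmarked matches to the STAT motif TTCNNNGAA (7.02% of windows). The Cxcr6 stretch held 1 unmarked match to the E-box CANNTG (66.2%). The other Ccr6 window, not printed, held the GATA core and no ROR motif. In all 9 windows of the receptors, the RUNX core was in 2, the T-box core in 1, the GATA core in 3 and the ROR motif in 1.

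In Treg, 5 of 10 receptors were higher in spleen than in lymph node (8.71% of all Treg genes were) and 1 was lower (6.01%). These 6 were called by limma at an adjusted p below 0.05, a threshold that 14.7% of all Treg genes passed in this comparison. The median difference over the 10 receptors was 0.29 on the log2(CPM + 1) scale, against -0.0028 over all genes.

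Cxcr3, the receptor for the interferon-induced chemokines CXCL9 and CXCL10 and a marker of type 1 cells, was at 19.7, 23.5 and 20.4 CPM in the lymph node Treg libraries 01 to 03 and at 39.1, 44.2 and 39.5 CPM in the spleen libraries 04 to 06. All spleen libraries stood above all lymph node libraries. The difference was 0.92 on the log2(CPM + 1) scale (SE 0.072, limma adjusted p = 9.62e-07), and the ratio of the organ means was 1.93. Ccr6, the receptor for CCL20 and a marker of type 17 cells, went the other way. It was at 45.6, 53.5 and 55.9 CPM in lymph node and at 24.4, 23.6 and 22.9 CPM in spleen, with every spleen library below every lymph node library. It fell by 1.09 on the log2(CPM + 1) scale (SE 0.071, limma adjusted p = 1.55e-07), and its lymph node mean was 2.18 times its spleen mean.

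The other 4 called receptors rose by less in spleen Treg. Cxcr5, the follicle receptor of T follicular cells, was at 50.8, 49.1 and 44.2 CPM in lymph node and at 62.8, 69.7 and 56.9 CPM in spleen, without overlap (difference 0.38, limma adjusted p = 0.00263). Ccr4 was at 40.0, 46.9 and 45.8 CPM in lymph node and at 56.7, 59.0 and 52.7 CPM in spleen, also without overlap (difference 0.34, limma adjusted p = 0.00266). Ccr2, the receptor for CCL2 on monocytes and effector T cells, was at 22.6, 25.4 and 26.6 CPM in lymph node and at 29.0, 29.8 and 33.5 CPM in spleen (difference 0.30, limma adjusted p = 0.00830). The lowest spleen value of Ccr2 thus stood just above the highest lymph node value. Cxcr4 overlapped between the organs, at 230, 287 and 318 CPM in lymph node and 313, 327 and 366 CPM in spleen (difference 0.28, limma adjusted p = 0.00917). The calls of Ccr2, Ccr4 and Cxcr4 did not hold without library 01 or without library 04. Both fits give the difference of the SAH libraries alone, since the treatment term absorbs the vehicle library that is left. They are thus a single check (0.27 for Ccr2, 0.26 for Ccr4 and 0.19 for Cxcr4). The calls of Ccr2 and Cxcr4 also did not hold without library 02. That of Cxcr4 was also lost without the intensity trend (limma adjusted p = 0.0764) or the treatment term (limma adjusted p = 0.0744).

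For the remaining 4 receptors the organ difference in Treg did not pass the test. Ccr8 was at 51.5, 61.7 and 57.3 CPM in lymph node and at 54.0, 47.1 and 36.5 CPM in spleen (difference -0.32, limma adjusted p = 0.0623). It passed without library 01, 04 or 05, or with the libraries rescaled to equal totals (limma adjusted p = 0.0452). Leaving out library 01 or 04 gave the same difference, -0.51, as the SAH libraries alone. Ccr9, the receptor for CCL25 in thymus and small intestine, was at 8.89, 8.07 and 9.68 CPM in lymph node and at 15.1, 8.36 and 14.3 CPM in spleen (difference 0.42, limma adjusted p = 0.0805). Library 05 was the one spleen library within the lymph node range, and without it the difference was 0.66 (limma adjusted p = 0.000216). Ccr7 differed by -0.04 (95% interval -0.31 to 0.23) and Cxcr6 by -0.06 (95% interval -0.36 to 0.23), intervals that leave room for changes in either direction. With all spleen libraries on one side of all lymph node libraries, 5 of 10 receptors were separated, against 32% of all Treg genes.

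In Tcon the organ differences were larger and fell on partly different receptors. Here 5 of 9 receptors were higher in spleen (3.28% of all Tcon genes were) and 1 was lower (1.46%), and these 6 compare with 4.73% of all Tcon genes that passed the limma test. Ccr2 is among the 5, and its listing in Tcon rests on the spleen libraries. The median difference over the 9 receptors was 0.80 on the log2(CPM + 1) scale, against -0.0019 over all genes. The same 6 were the receptors whose organs did not overlap, a separation seen in 19.3% of all Tcon genes.

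Cxcr6, the receptor for CXCL16 on memory, tissue-resident and natural killer T cells, was at 3.49, 2.89 and 2.63 CPM in lymph node Tcon and at 38.4, 19.1 and 23.9 CPM in spleen Tcon. The vehicle spleen library 04 was the highest of the 6, and every spleen library was far above every lymph node library. The difference was 2.76 (SE 0.13, limma adjusted p = 1.64e-06), and the spleen mean was 9.03 times the lymph node mean. Ccr2 was at 0.533, 0.949 and 1.10 CPM in lymph node, which is 20, 40 and 43 reads, and at 14.2, 7.76 and 8.94 CPM in spleen. Its listing in the Tcon table therefore rests on the spleen libraries, and the difference of 2.57 (SE 0.19, limma adjusted p = 2.99e-05) understates a ratio of means of 12.0. Cxcr3 was at 2.51, 2.89 and 2.04 CPM in lymph node and at 18.4, 13.8 and 12.2 CPM in spleen. Its difference was 2.17 (SE 0.13, limma adjusted p = 6.24e-06), and the spleen mean was 5.96 times the lymph node mean.

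Ccr9 was steady in lymph node Tcon, at 3.81, 3.82 and 3.98 CPM, and higher in spleen, at 14.7, 7.35 and 9.44 CPM (difference 1.19, limma adjusted p = 0.00129). Cxcr5 was at 7.20, 5.29 and 5.56 CPM in lymph node and at 13.4, 12.6 and 8.13 CPM in spleen (difference 0.80, limma adjusted p = 0.00562), and without library 03 its adjusted p was 0.0537. For Cxcr6, Ccr2, Cxcr3, Ccr9 and Cxcr5 the vehicle library 04 was the highest of the spleen Tcon libraries. Ccr8 was the receptor that fell: it was at 6.21, 7.90 and 8.73 CPM in lymph node and at 3.02, 2.20 and 2.13 CPM in spleen, without overlap. It fell by 1.32 on the log2(CPM + 1) scale (SE 0.14, limma adjusted p = 0.000377). Ccr7 (difference -0.02), Cxcr4 (0.10) and Ccr4 (0.18) did not pass, and their organs overlapped.

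Genes of natural killer and innate-like T cells followed the same libraries in Tcon. Klrb1c, which encodes NK1.1, was at 0.480, 0.664 and 0.332 CPM in lymph node Tcon and at 23.6, 10.9 and 13.4 CPM in spleen Tcon, with library 04 highest. Nkg7, a cytotoxic granule gene, was at 1.36, 2.09 and 1.07 CPM in lymph node and at 21.2, 14.8 and 16.3 CPM in spleen. No lymph node Tcon library reached 1 CPM for Klrb1c, so its listing in Tcon rests on the spleen libraries. In Treg the same marker list went both ways. Nkg7 was lower in spleen Treg (difference -0.81, limma adjusted p = 1.01e-05). Klrb1c was at 1.32, 1.44 and 1.08 CPM in lymph node Treg and at 3.38, 3.91 and 3.51 CPM in spleen Treg (difference 1.02, limma adjusted p = 0.000141). Eomes, a factor of cytotoxic and memory cells, was also higher in spleen Treg (difference 0.65, limma adjusted p = 0.00441). In bulk RNA, more cells of one type and more RNA per cell cannot be told apart, and the part of such cells in the receptor values was not tested.

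**Figure D3:**
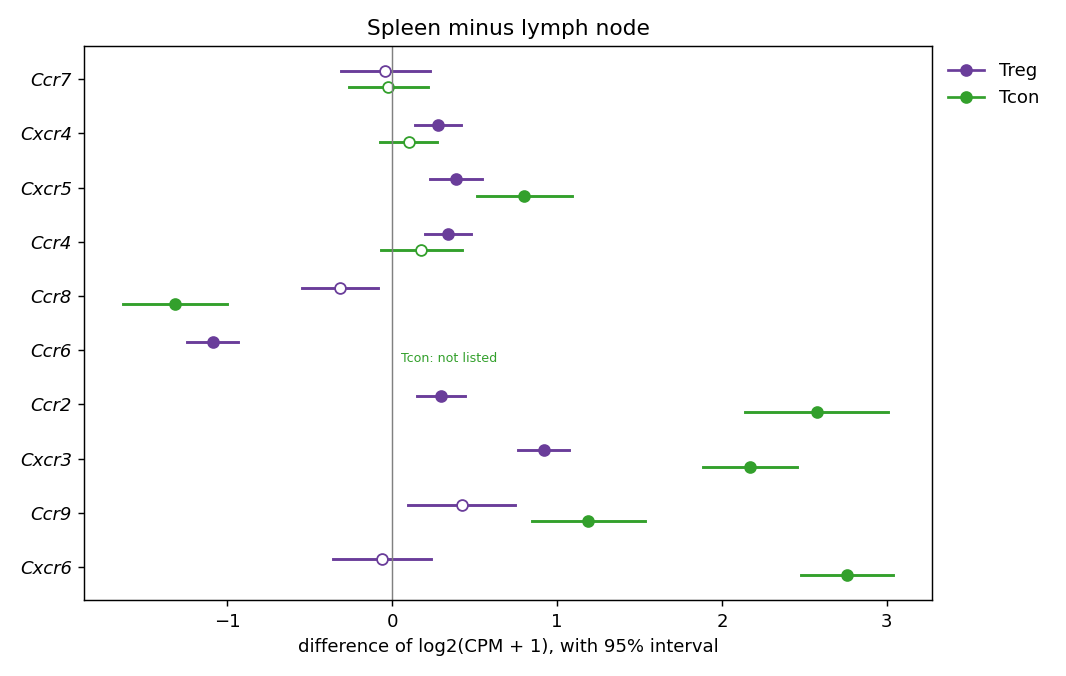
Difference between spleen and lymph node on the log2(CPM + 1) scale for each receptor in Treg (purple) and Tcon (green), with the 95% interval of the limma model, filled where the adjusted p was below 0.05. Cxcr6, Ccr2 and Cxcr3 lie at 2.17 to 2.76 in Tcon, while in Treg these 3 lie between -0.06 and 0.92.

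The organ difference itself was compared between Treg and Tcon in 1 limma model of all 12 libraries. It differed for 4 of 9 receptors, against 1.46% of the 9784 genes listed in both tables. Ccr2 is among the 4, and its listing in Tcon rests on the spleen libraries. The Treg difference was the lower for 3 receptors (1.09% of genes) and the higher for 1 (0.368%). Cxcr6 had the widest gap of the 9, -2.82 as Treg minus Tcon (95% interval -3.25 to -2.40, limma adjusted p = 2.46e-06). The gap was -2.28 for Ccr2 (95% interval -2.76 to -1.79, limma adjusted p = 6.12e-05) and -1.25 for Cxcr3 (95% interval -1.59 to -0.92, limma adjusted p = 0.000412). Ccr8 had a gap of 1.00 in the other direction, its spleen libraries lying further below those of lymph node in Tcon (95% interval 0.56 to 1.43, limma adjusted p = 0.0233). That last call held in 6 of 12 fits that each left out 1 library. These fits are not all separate, since leaving out library 01 or 04 of a cell type gives the same difference (0.81 for either in Treg). The Ccr8 call was lost without Treg library 01, 03, 04 or 05 or Tcon library 03 or 05. It was also lost with a pseudocount of 4 (0.55, limma adjusted p = 0.139) and without the intensity trend (limma adjusted p = 0.0664). With the shared library number as a block, Ccr9 (-0.77, limma adjusted p = 0.00131) and Cxcr5 (-0.42, limma adjusted p = 0.0113) passed too, where without the block their adjusted p was 0.205 and 0.302. Cxcr5 also passed without the Tcon library 06 (-0.58, limma adjusted p = 0.0325). The block raised the count over all genes from 143 to 703. Ccr7 (-0.02), Ccr4 (0.16) and Cxcr4 (0.18) passed in neither fit.

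Some of these receptors lie near each other on chromosome 9, and this neighbourhood was looked at after the values had been seen. Ccr9 (mm10, 123678439 to 123784330), Cxcr6 (123806475 to 123811760) and Ccr2 (124101950 to 124113557) lie in this order on the plus strand, and all 3 were higher in spleen Tcon. They are not an unbroken run. Between Cxcr6 and Ccr2 lie Ccr3 on the plus strand and Xcr1, Ccr1 and Ccr1l1 on the minus strand, all listed in neither cell type. The 2 listed genes Lztfl1, a ciliary protein gene within Ccr9, and Fyco1, an autophagosome transport gene around Cxcr6, both on the minus strand, did not pass in Tcon, at 0.06 and -0.17. In Treg, Ccr2 was the only one of the 3 receptors that passed, while Fyco1 fell by 0.25 (limma adjusted p = 0.00294). Fyco1 spans Cxcr6 on the opposite strand, but exons of Cxcr6 overlap exons of other genes over 0 bases. Exons of Ccr9 overlap those of Slc6a20a and 2 other genes over 2201 bases. The library kit keeps strand, but whether the counting used it is not given in the sources used here, and the values of Ccr9 are uncertain to that extent.

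SAH was followed by no receptor change that passed the limma test in Treg, with 0 of 10 called against 0.202% of all Treg genes. At an unadjusted p below 0.05 there were 2 receptors and 733 genes in all. Cxcr4 was nearest, at 230 CPM with vehicle and 287 and 318 CPM with SAH in lymph node, and 313 CPM with vehicle and 327 and 366 CPM with SAH in spleen. Both SAH libraries thus stood above vehicle in each organ, and the difference was 0.27 (95% interval 0.12 to 0.41, limma adjusted p = 0.235). Without library 05 it passed (0.32, limma adjusted p = 0.0162). Over the fits that each left out 1 library, the Cxcr4 difference ran from 0.14 to 0.39. In the authors' deposited table, Cxcr4 in Treg had a log2 fold change of 0.266 and a false discovery rate of 0.0646 and was not called. Ccr2 and Cxcr3 also had both SAH libraries above vehicle in each organ, so 3 of 10 receptors did so and 0 the opposite, against 25.2% of Treg genes with either pattern.

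In Tcon, likewise, limma called 0 of 9 receptors, against 1.04% of all Tcon genes, with 3 receptors and 1391 genes in all at an unadjusted p below 0.05. Cxcr4 was again higher with SAH, at 251 CPM with vehicle and 322 and 314 CPM with SAH in lymph node, and 252 CPM with vehicle and 314 and 394 CPM with SAH in spleen. The groups did not overlap over the 6 libraries, and the difference was 0.41 (95% interval 0.23 to 0.59, limma adjusted p = 0.0510). It passed without library 02 (0.41, limma adjusted p = 0.0455), without library 05 (0.47, limma adjusted p = 0.0253), and among genes with a mean of at least 5 CPM (limma adjusted p = 0.0477). Cxcr6 was lower with SAH in each organ, with 3.49 CPM for vehicle and 2.89 and 2.63 CPM for SAH in lymph node, and 38.4 CPM for vehicle and 19.1 and 23.9 CPM for SAH in spleen. Its difference was -0.54 (95% interval -0.83 to -0.24, limma adjusted p = 0.0967), and it passed without library 02 (-0.60, limma adjusted p = 0.0492). Over the fits that each left out 1 library, the difference ran from -0.82 to -0.26 for Cxcr6 and from 0.33 to 0.48 for Cxcr4. The authors' deposited table calls both: Cxcr4 up, with a log2 fold change of 0.415 and a false discovery rate of 0.000726, and Cxcr6 down, with -0.652 and 0.000689. In spleen, the CD8 and NK marker sum also stood at 102 CPM with vehicle and at 79.0 and 78.5 CPM with SAH, and its part in the lower Cxcr6 was not tested. Cxcr5 had both SAH libraries below vehicle in each organ as well (difference -0.36, limma adjusted p = 0.272). That made 3 of 9 receptors on one side in both organs, against 33.3% of all Tcon genes.

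**Figure D4:**
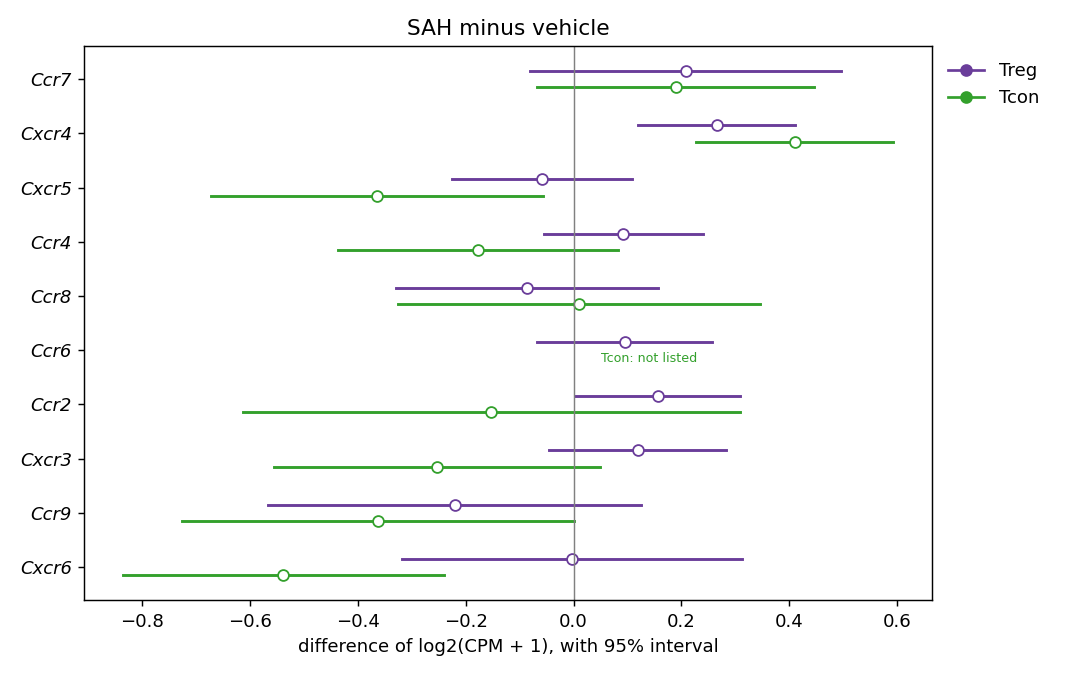
Difference between SAH and vehicle on the log2(CPM + 1) scale for each receptor in Treg (purple) and Tcon (green), with the 95% interval of the limma model; open circles mean that the adjusted p was not below 0.05, as for every receptor here. The intervals of Cxcr4 lie above 0 in both cell types and that of Cxcr6 below 0 in Tcon.

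The SAH difference was also set against the organ, with 1 vehicle library in each. No receptor passed the limma test of the difference between organs, 0 of 10 in Treg (background 0.00961%, 251 genes and 4 receptors at an unadjusted p below 0.05) and 0 of 9 in Tcon (background 0%, 504 genes and 5 receptors). Ccr7 was 207 CPM with vehicle and 279 and 344 CPM with SAH in lymph node Treg, while in spleen it was 284 CPM with vehicle and 224 and 287 CPM with SAH. The difference between the organs was -0.74 (95% interval -1.13 to -0.36, limma adjusted p = 0.832). It passed without spleen library 05 (-0.56, limma adjusted p = 7.89e-05) or 06 (-0.92, limma adjusted p = 2.09e-13), as did that of Ccr8 in Treg without 05 (-0.76, limma adjusted p = 2.19e-06), in fits whose spread comes from 1 pair of libraries. In Tcon, Ccr7 was 587 CPM with vehicle and 742 and 861 CPM with SAH in lymph node, and 732 CPM with vehicle and 637 and 765 CPM with SAH in spleen (-0.51, limma adjusted p = 0.913). The lymph node vehicle library was the lowest of the 6 in both cell types. Ccr2 in Tcon had the widest value of the 9, -1.10 (95% interval -1.63 to -0.57, limma adjusted p = 0.624). The SAH difference did not pass between Treg and Tcon for any of 9 receptors or 9784 genes (453 genes and 2 receptors at an unadjusted p below 0.05). With the library number as a block, 76 genes passed and no receptor did.

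The partners of these receptors were read from lists of whole gene families and pathways. Among other chemokine receptor genes, the atypical receptor gene Ccrl2 was higher in spleen in both, by 0.78 in Treg (limma adjusted p = 1.82e-05) and by 1.42 in Tcon (limma adjusted p = 5.24e-05). Of 23 chemokine genes, 3 were listed in Treg and 4 in Tcon. Ccl5, a chemokine made by memory and cytotoxic cells, was at 0.400, 2.18 and 0.766 CPM in lymph node Tcon and at 23.7, 21.3 and 20.1 CPM in spleen Tcon, and its listing in Tcon rests on the spleen libraries. It was higher in spleen in both cell types, by 3.51 in Tcon and 1.31 in Treg, and these differences differed (-2.19, limma adjusted p = 0.000582). Cxcl10, a ligand of CXCR3, was higher in spleen Treg (0.60, limma adjusted p = 0.00445). Xcl1, the ligand of XCR1, was at 0.560, 0.854 and 0.562 CPM in lymph node Tcon and between 9.40 and 17.2 CPM in spleen Tcon. It was listed in Tcon only through the spleen libraries and was not listed in Treg.

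Genes that carry the receptor signal and other trafficking genes are read against all genes, of which 8.71% were higher and 6.01% lower in spleen Treg, and 3.28% higher and 1.46% lower in spleen Tcon. Of 29 tested genes of G proteins, RGS proteins and downstream kinases and GTPases, 2 were higher and 4 lower in spleen Treg, and 1 was higher and 1 lower in spleen Tcon. Rgs16 and Rgs10, which shorten G protein signalling, fell by 0.40 and 0.38 in Treg, and Rgs10 fell by 0.31 in Tcon. The median difference over the 29 was 0.0040 in Treg and 0.023 in Tcon. Of other trafficking genes, 2 of 13 were higher and 3 lower in spleen Treg, and 4 of 11 were higher and 0 lower in spleen Tcon. Gpr183, the oxysterol receptor EBI2 that positions cells in spleen, was at 54.1 to 64.3 CPM in lymph node Treg and 112 to 120 CPM in spleen Treg (0.93), and rose by 0.23 in Tcon. Its organ difference was the greater in Treg, by 0.70 (limma adjusted p = 6.09e-05). Itgae, the CD103 chain that binds E-cadherin, fell by 1.53 in spleen Treg, and Itgb1, the beta 1 integrin chain, rose by 0.89 in spleen Tcon. Cd44 rose by 0.35 in spleen Tcon (limma adjusted p = 0.0143) and was called lower in spleen Treg.

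Transcription factors of T cell lineages and of quiescence made up the last list. In spleen Treg 11 of 20 were higher and 3 lower, and in spleen Tcon 7 of 19 were higher and 0 lower, against 8.71% higher and 6.01% lower of all Treg genes and 3.28% and 1.46% of all Tcon genes. Tbx21, the gene of T-bet, which drives Cxcr3 in type 1 cells, was at 2.85 to 4.03 CPM in lymph node Treg and 5.19 to 7.84 CPM in spleen Treg. In Tcon it was at 1.10 to 1.73 CPM in lymph node and at 10.6 to 14.9 CPM in spleen, without overlap. The gap of its organ difference, Treg minus Tcon, was -1.77 (limma adjusted p = 0.000354), the same direction as for Cxcr3. All 7 factors that were higher in spleen Tcon, Zeb2, Eomes and Id2 among them, were also higher in spleen Treg.

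The genes whose pattern lay nearest to a receptor were ranked by the root mean square distance of centred log2 values, over 12 libraries or, for Ccr6, over the 6 of Treg. Nearest to Cxcr6 was Ccr2, at a distance of 0.25, followed by Ifng, the interferon gamma gene (0.31), and Nkg7 (0.34), out of 8825 genes ranked. Ifng was also nearest to Ccr2, at 0.19, and among the nearest 3 to Cxcr3, at 0.26. Nearest to Cxcr5 was Maf, a factor of follicular helper cells, at 0.11, and nearest to Ccr6 was Scd2, a fatty acid desaturase gene, at 0.093. Dtx4 lay nearest to Ccr9 (0.22), Cd86 to Ccr8 (0.25), Cir1 to Ccr4 (0.065) and Dnaja1 to Cxcr4 (0.072). These distances describe the libraries at hand and share their organ differences. They are not comparable between receptors, whose own root mean square around the mean differed. It was 0.17 for Ccr4, 0.21 for Cxcr4, 0.51 for Ccr8 and 1.00 for Cxcr6.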

How the data were processed

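Sorted Treg and Tcon RNA was measured in 12 libraries. The submitters' processing notes name TopHat, Bowtie, edgeR and mm10, without versions. The sources used here give no counting or strand settings. For Treg and for Tcon, 1 table was deposited, holding a normalized signal named CPM in the file headers. Column totals of 971928 to 1.02143e+06 show a further factor in each library. Per the file headers, the authors also deposited a log2 fold change of SAH against vehicle, p-values with a false discovery rate, and a score of up, down or neither; these appear only where named. Divided by the worth of 1 read, 100% of the CPM values lay within 0.1 of a whole number.

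Tests used limma 3.58.1 in R 4.3.3 on log2(CPM + 1), with its intensity trend and two-sided p-values, on genes that had 1 CPM in 2 or more libraries. Organ and treatment were terms of 1 model per cell type, with 3 residual degrees of freedom; their interaction left 2, and comparisons between cell types used all 12 libraries with 6. P-values were adjusted by Benjamini-Hochberg over all genes of a comparison and called below 0.05. The models were tested on simulated data with 200 changed genes.

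The labels do not pair the Treg and Tcon libraries, and pairing by library number was judged from the data alone. The residuals of same-numbered SAH libraries correlated at 0.40 to 0.54 over genes. Around the mean of each SAH pair the correlation was 0.44 in lymph node and 0.56 in spleen, 1 independent value per organ. For vehicle libraries 01 and 04 the residuals mirror each other, as each organ has 1 vehicle library. Their shared value of 0.29 therefore cannot show whether they pair. The receptors and lists were chosen with earlier results of these data known. Named in the text are all 10 receptors and, from each other list and comparison, at most 4 called genes with the largest difference. Coordinates and transcript lengths are from GENCODE on mm10, and promoters from RefSeq on GRCm38.p6. Some genes of the lists are not reported here. Alternatives were other pseudocounts (0.25 and 4), filters, scaling, symbols, covariates, a replicate block and each library left out.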

Additional observations from a re-analysis of the deposited data

Results flagged for a closer look

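Of the receptors, 4 had an organ difference that itself differed between Treg and Tcon by the limma interaction test, given as Treg minus Tcon on the log2(CPM + 1) scale. Cxcr6 stood at -2.82, Ccr2 at -2.28 and Cxcr3 at -1.25, all with the larger spleen excess in Tcon. The listing of Ccr2 in Tcon rests on the spleen libraries. Ccr8 stood at 1.00, with the spleen libraries further below those of lymph node in Tcon. No group had the 4 libraries needed to look for a library far from the others.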

How the results depend on the processing

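Over all comparisons and alternatives, 1098 values of single receptors kept their side of the threshold (1051 of them with the same direction, the other 47 being uncalled values that changed sign), 17 came to pass it, 22 no longer passed it and 0 called values reversed. The number of receptors called moved by over 1.5 times in 3 comparisons: the SAH effect in Treg (0, and 0 to 1 with 1 library left out), the SAH effect in Tcon (0, then 1 with a mean of at least 5 CPM, and 0 to 2 with 1 library left out), and the SAH effect between the organs in Treg (0, and 0 to 2 with 1 library left out). With the replicate block, receptors called in the organ difference of Treg against Tcon went from 4 to 6, and it changed no other receptor's call. Counts over all genes depended more on single libraries. With 1 library left out the organ count went from 1531 to as few as 768 in Treg and from 468 to as few as 215 in Tcon, the SAH count from 21 to between 7 and 95 in Treg and from 103 to between 11 and 226 in Tcon, and the count of organ differences between cell types from 143 to between 79 and 287. The SAH libraries alone gave 788, 262 and 67 organ calls in Treg, in Tcon and between them. Without an organ term the SAH counts were 1 and 1, and without the trend 7 and 11. Without a treatment term the Tcon organ count was 277, and with a mean of at least 5 CPM the count between cell types was 83. The SAH count between organs went from 1 to as many as 94 in Treg and from 0 to as many as 15 in Tcon with 1 library left out, and was 1 in Tcon with a pseudocount of 4. In Treg it was 2 with a pseudocount of 0.25, with a mean of at least 5 CPM or with 1 symbol per gene, and 0 without the trend. The SAH count between cell types went from 0 to 3 with a pseudocount of 4, to 1 without the trend and to 76 with the replicate block. The causes were not tested. Leaving out vehicle library 01 or 04 left no fit of the SAH effect between organs. The planned edgeR and DESeq2 alternatives were not run, because the filtered tables hold too few low values to accept rebuilt reads as counts. Each organ has 1 vehicle library, which limits every SAH comparison, and the low receptors of lymph node Tcon rest on few reads (20 to 43 for Ccr2).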
